A study of Mus musculus with 17 samples.

Results

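Monocytic cells (Mo) from the spleens of mice 3 weeks after tumour injection were compared with the same cells of naive mice. The comparison used 6 of the 17 Affymetrix Mouse Gene 1.0 ST arrays of the study, chosen by their labels: 3 Mo arrays from naive mice and 3 from tumour-bearing mice. All mice were female BALB/c. The tumour-bearing mice had received 100000 Her-2/CT26 cells under the skin, a subcutaneous graft of the CT26 colon carcinoma line that carries Her-2, and the naive mice had received no tumour. CD11b+ cells were enriched from pooled spleens on magnetic columns and sorted as CD11b+Ly-6C(high)Ly-6G(low). The other 11 arrays held 3 Mo arrays at 6 weeks and 8 arrays of polymorphonuclear cells (PMN, CD11b+Ly-6C(low)Ly-6G(high)), with 4 from naive mice, 2 at 3 weeks and 2 at 6 weeks. Nothing in the labels says that replicates are separate pools of spleens. The p-values below then set a difference only against the spread between arrays, and that spread may be technical. In the main fit it is pooled over the groups of all 17 arrays.

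Classical monocytes leave the bone marrow under control of the chemokine receptor CCR2, enter the spleen and inflamed tissue, and there become macrophages or dendritic cells. In tumour-bearing mice cells with the same surface markers accumulate in the spleen and can restrain T cells, and are then called monocytic myeloid-derived suppressor cells. Arginase 1, inducible nitric oxide synthase, reactive oxygen, the S100A8 and S100A9 proteins and PD-L1 are the effectors most often named for them. The study asked what makes these cells more suppressive as the tumour grows, and the 3-week arrays address its early part.

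The 6 arrays carried the transcripts of monocytes. Ccr2 lay between 12.05 and 12.45 on the log2 intensity scale in all 6 arrays, and Csf1r, the receptor for the monocyte growth factor M-CSF, between 11.96 and 12.11. None of 11 monocyte markers passed the test (median change 0.14). Ly6g, which encodes the antigen used to sort neutrophils, lay between 5.70 and 6.18, which is within the range of 1194 olfactory and vomeronasal receptor genes that serve here as silent genes (95th percentile 6.62 to 7.29 per array). Of the 11 neutrophil markers, Ly6g, Cxcr2, Mmp9, Retnlg, Stfa3 and Il1r2 were under that limit in all 6 arrays. The rest of the 11 were not under it in all arrays. Among them, S100a8 reached 8.94 and S100a9 7.71 at 3 weeks.

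The arrays of each group were not alike. Along the first principal component of the 6 arrays, which held 78.8% of their variance, naive replicates lay at -30.3, -23.1 and -3.19 and 3-week replicates at -11.8, 28.2 and 40.1. Naive replicate 3 and 3-week replicate 1 thus lay next to each other between the other arrays, in the reverse order of their groups. The remaining 4, naive replicates 1 and 2 and 3-week replicates 2 and 3, are called the outer arrays below. The difference between the groups also varied with how bright a gene was. The median change of 4279 genes with a mean log2 level of 8 to 10 was 0.27, and that of 9698 genes at 6 to 8 was -0.12. In the brighter range 3-week replicates 2 and 3 lay 0.36 and 0.44 above the naive mean at the median, against 0.05 for 3-week replicate 1 and 0.12 for naive replicate 3. Their lower quartiles of intensity were 47.9 and 46.9, against 52.2 to 56.4 on the other 4 arrays.

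**Figure D1:**
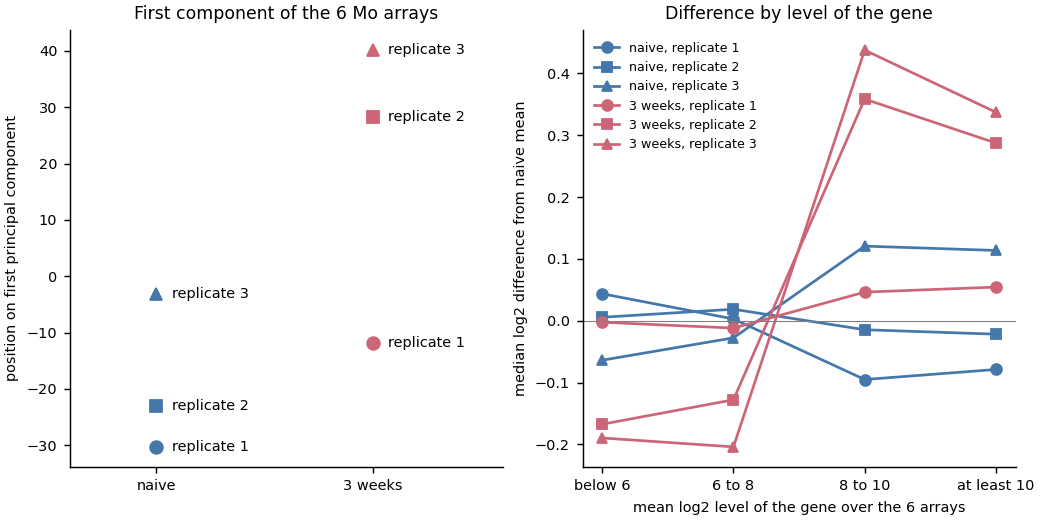
Position of the 6 Mo arrays on the first principal component (left) and the median log2 difference of each array from the naive mean for genes in 4 ranges of mean log2 level (right); each point is 1 array. Naive replicate 3 (-3.19) lies beyond 3-week replicate 1 (-11.8), and 3-week replicates 2 and 3 alone lie far above the naive mean in the range from 8 to 10.

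Of 19938 genes, 1202 (6.03%) passed, of which 1036 were higher (5.2%) and 166 lower (0.833%) at 3 weeks at an adjusted p below 0.05 (limma over all 17 arrays, Benjamini-Hochberg). Of these, 24 rose and 2 fell at least 2-fold. All 3 tumour arrays lay above all 3 naive arrays for 2101 genes (10.5%) and below them for 2071 (10.4%). Scaling each array to one median added 0.14 to every Mo change and gave 1382 higher and 30 lower genes. The count rested on the spread shared with the other groups and on single arrays: 2 genes passed in a fit of the 9 Mo arrays alone, and 0 in a fit of the 6 (4352 at an unadjusted p below 0.05). The median standard deviation of a gene within a group was 0.12 to 0.18 in the Mo groups and 0.07 to 0.11 in the PMN groups. With 1 spread per gene for all groups, standard errors may thus be too small for Mo and too large for PMN. The count was 16 to 18 when any outer array was left out, and rose to 2517 without naive replicate 3 and to 8911 without 3-week replicate 1. Of the 2517, 1831 were higher and 686 lower, and of the 8911, 4531 were higher and 4380 lower. Counts of gene groups in these 2 fits are to be read against these totals. Shares by level were not worked out for them. The share of genes called higher was 15% at a mean log2 level of 8 to 10, 12.4% above that, 2.9% from 6 to 8 and 0.0981% below 6, so the counts of gene groups below are given beside the share of all genes called higher in the range that holds the median level of the group. The median change of all genes was 0.23 at a level of at least 10 and -0.12 below 6.

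A set of 16 genes passed the test with all arrays and in each of the 6 fits without 1 of the 6 arrays. These were 13 that rose (0.0652% of genes) and 3 that fell (0.015%). All 16 also passed after median scaling, after quantile normalization within the subset or over all arrays, with intensities raised to a floor of 64, with array weights and without each PMN array. With array weights 13209 of all 19938 genes passed, so that fit adds little. In the fit of the 9 Mo arrays alone, only Vcan (adjusted p = 0.0295) and Gda (0.0434) of the 16 passed. Genes that pass all these fits will tend to have groups that do not overlap, so the lack of overlap given below is no further test. Gene positions below are those of RefSeq on GRCm38.p6.

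Vcan (chr13:89655309-89743027) encodes versican, a large chondroitin sulfate proteoglycan of the extracellular matrix. Its log2 intensities were 6.15, 6.66 and 6.77 in naive replicates 1, 2 and 3 and 8.51, 9.76 and 9.31 at 3 weeks. No array of one group reached the other, and the naive values lay within the range of silent genes, so the fold may be understated. The rise was 6.37-fold (2.67 ± 0.22 SE, limma adjusted p = 2.32e-05) and lay between 2.39 and 3.01 when 1 array was left out. The standard deviation of Vcan was 0.33 in naive and 0.63 in 3-week Mo arrays, against 0.10 and 0.06 in PMN, so this error may be too small. At 6 weeks Vcan stood at 11.33, 11.37 and 11.37, a further 2.16 ± 0.22 SE (adjusted p = 5.33e-06).

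Ccr1 (chr9:123962126-123968692) encodes a receptor for CCL3, CCL5 and related chemokines. Its log2 intensities were 5.80, 5.85 and 6.42 in naive mice and 7.32, 8.16 and 8.46 at 3 weeks, a 3.89-fold rise (1.96 ± 0.25 SE, limma adjusted p = 0.00173). The 3-week arrays lay above all naive arrays, with replicate 1 the lowest of the 3, and the naive values were again within the range of silent genes. Among the 14 chemokine and chemoattractant receptors measured, Ccr1 was the 1 that rose and Cxcr4 the 1 that fell, and the median was -0.11. For all genes at this level, 15% were called higher and the median was 0.27. The median level of the list, 8.08, lay near the edge of that range. For all genes at 6 to 8 these values were 2.9% and -0.12. Cxcr4, which holds cells in the bone marrow, went from 12.16, 12.05 and 12.20 to 11.94, 11.69 and 11.54 (-0.41 ± 0.12 SE, limma adjusted p = 0.0458). Its call held in 1 of the 6 fits without 1 array, the one without 3-week replicate 1, while that of Ccr1 held in all 6, and the Cxcr4 call ended after median scaling (adjusted p = 0.113). Ccr2 differed by 0.14 (adjusted p = 0.386) and did not pass.

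Mmp8 (chr9:7558429-7568486) encodes neutrophil collagenase, an enzyme of the specific granules. It read 8.73, 8.82 and 9.17 in naive mice and 9.78, 10.39 and 10.49 at 3 weeks on the log2 scale. All 3 tumour arrays exceeded the highest naive array, naive replicate 3, and the rise was 2.49-fold (1.32 ± 0.17 SE, limma adjusted p = 0.00173). Camk2d (chr3:126595487-126846326), a subunit of calcium and calmodulin dependent kinase II, read 7.95, 8.06 and 8.71 and then 9.39, 9.71 and 9.71, a rise of 1.36 ± 0.18 SE (limma adjusted p = 0.00173). Naive replicate 3 was the highest naive array here too, and still lay below all 3-week arrays.

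Of the others, Cd300lf (chr11:115116214-115135372) encodes an inhibitory receptor of myeloid cells that binds lipids. It went from 7.28, 7.20 and 7.50 to 8.21, 8.76 and 8.68 (1.23 ± 0.18 SE, limma adjusted p = 0.00323). Atp11a (chr8:12757016-12868728), a flippase that moves phosphatidylserine to the inner face of the plasma membrane, rose by 1.23 ± 0.18 SE, and Flot2 (chr11:78037931-78060434), a scaffold of membrane rafts, by 1.21 ± 0.17 SE. Lgals1 (chr15:78926725-78930465) encodes galectin 1, a secreted lectin that binds glycans on T cells, and rose from 10.24, 10.36 and 10.70 to 11.19, 11.83 and 11.85 (1.19 ± 0.17 SE, limma adjusted p = 0.00323). In none of these 4 genes did the groups overlap.

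Gda (chr19:21391307-21472661) encodes guanine deaminase, an enzyme of purine breakdown. Its log2 intensities were 9.74, 9.79 and 10.09 in naive mice and 10.80, 11.19 and 11.14 at 3 weeks, with less spread within a group than Vcan (1.17 ± 0.13 SE, limma adjusted p = 0.000674). F10 (chr8:13037308-13056676), coagulation factor X, rose from 9.25, 9.36 and 9.62 to 10.24, 10.70 and 10.64 (1.12 ± 0.12 SE, adjusted p = 0.000427). The groups were apart for both genes. Gcnt2 (chr13:40859768-40960892), which branches the polylactosamine chains of the I blood group antigen, rose by 0.90 ± 0.13 SE, Cux1 (chr5:136248135-136567590), a homeodomain repressor, by 0.73 ± 0.10 SE, and S100a11 (chr3:93520496-93526288), a calcium-binding protein, by 0.74 ± 0.10 SE. S100a11 was the 1 gene of the 16 with a second feature, which rose by 0.76 against 0.74 for the one used.

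Of the genes that fell in all these fits, Hspa1a (chr17:34969359-34972156) encodes the inducible heat shock protein HSP70. Its log2 intensities were 8.46, 8.60 and 8.91 in naive mice and 7.55, 7.69 and 7.06 at 3 weeks, a 2.33-fold fall (-1.22 ± 0.14 SE, limma adjusted p = 0.000811). Here 3-week replicate 3 was the lowest array, and all 3 lay below the naive range. Hspa1a has a near-identical neighbour, Hspa1b, whose transcript the same probes may read.

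Siglec1 (chr2:131067801-131086778) encodes CD169, a sialic acid binding lectin of macrophages that interferon also induces. It fell from 8.55, 8.52 and 8.74 to 7.86, 7.77 and 7.74 (-0.82 ± 0.11 SE, limma adjusted p = 0.00173). The 3-week values were close together and all below the naive ones. Flt1 (chr5:147561604-147726438), a receptor for the growth factors VEGF-A and PlGF, fell from 8.32, 8.26 and 8.33 to 7.69, 7.43 and 7.69 (-0.70 ± 0.10 SE, limma adjusted p = 0.00232), again without overlap. From 3 to 6 weeks Siglec1 fell by 0.74 on the log2 scale (adjusted p = 0.000176), while Hspa1a (-0.06, adjusted p = 0.859) and Flt1 (-0.26, adjusted p = 0.132) did not pass between 3 and 6 weeks.

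**Figure D2:**
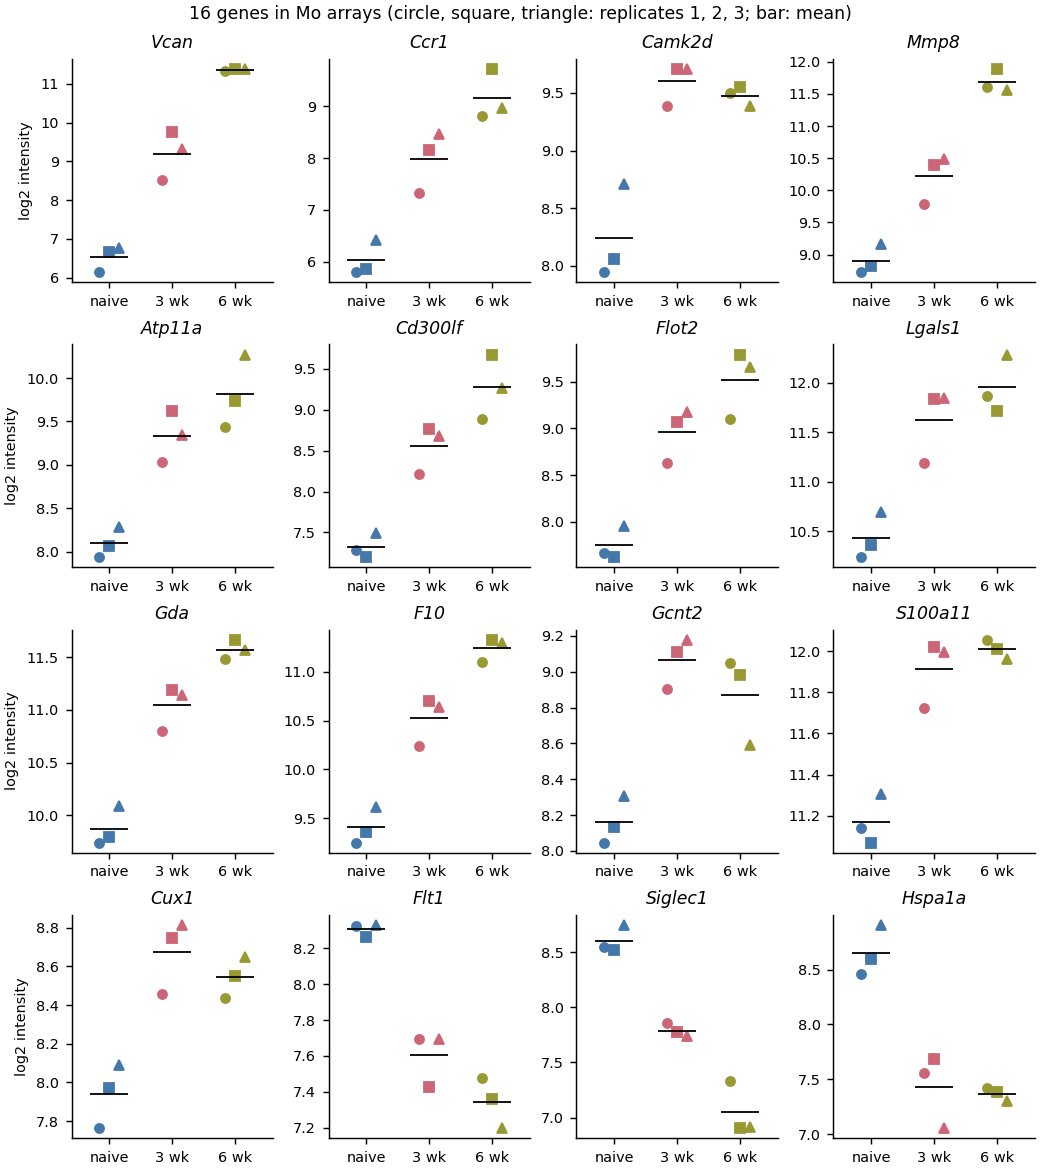
Log2 intensity of the 16 genes that passed with all arrays and without each of the 6 naive and 3-week Mo arrays; points are single Mo arrays at naive, 3 weeks and 6 weeks, bars are group means, and each panel has its own scale. In every panel the 3 naive and the 3 3-week arrays are apart, which the choice of these genes favours. Vcan goes on from a mean of 9.19 at 3 weeks to 11.36 at 6 weeks whereas Camk2d stands at 9.60 and 9.48.

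A further 53 of the genes chosen by the naming rule given with the processing passed with all arrays. For 51 of them the call was lost in the 4 fits without an outer array, and held in the 2 fits without naive replicate 3 or 3-week replicate 1. The exceptions were Cxcr4, given above, and Clec4e, which held in 3 fits. Every one of the 69 genes chosen by that rule that passed kept its direction in each of its fits. Of these 69, 7 were not past the test after median scaling, all of them falls (Cd209a, Dmrt2, Cyp2d40, Grifin, Cxcr4, Cxcl9 and Trib3), 14 after quantile normalization within the subset, 26 after it over all arrays and 44 with a floor of 64. Among the 69, the calls that ended after quantile normalization within the subset were those of Dmrt2, Grifin, Zfp532, Cxcl9, Ly96, Trem3, Chil3, Tpi1, Dhx58, Stat3, Cat, Trib3, Ndufb8 and Cldn4. Members named below only to account for a list's count were left out of these checks. After that normalization the respiratory chain list went from 13 to 6 genes that rose, and the S100 and annexin list from 8 to 5. For the genes below, a call is therefore a statement about these arrays together, and the array values are given with it.

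The 12 largest rises among genes whose groups did not overlap were, beside 7 of the 13 genes above (Vcan, Ccr1, Camk2d, Mmp8, Atp11a, Cd300lf and Flot2), Clec4e, S100a8, Serpinb1a, Hal and Cfp. Clec4e encodes MINCLE, a receptor for mycobacterial glycolipid and for a protein of dying cells. It read 8.03, 7.52 and 7.63 in naive mice and 8.62, 9.29 and 9.24 at 3 weeks (2.5-fold, 1.32 ± 0.23 SE, limma adjusted p = 0.0138). S100a8 encodes a subunit of the alarmin calprotectin, and read 6.87, 7.52 and 7.93 and then 8.16, 8.94 and 8.94 (2.36-fold, 1.24 ± 0.28 SE, limma adjusted p = 0.0262). For S100a8 the gap between the groups was narrow, since naive replicate 3 stood at 7.93 and 3-week replicate 1 at 8.16. Serpinb1a, an inhibitor of neutrophil elastase, rose by 1.24 ± 0.24 SE, Hal, which starts histidine breakdown, by 1.23 ± 0.21 SE, and Cfp, which encodes properdin of the alternative complement pathway, by 1.20 ± 0.19 SE. In these 3 genes 3-week replicate 1 was the lowest tumour array.

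The bases just before the start of the 3 largest rises that held a motif read for myeloid genes are shown, with the motif in capitals, to give the sequence in front of genes that moved together. TTGCNNAA stands for the core of a C/EBP site and GAGGAAG for that of a PU.1 site; both strands were searched in the 250 bases before the first start listed for each gene, taken from the RefSeq promoters of GRCm38.p6, a C57BL/6J reference. The windows are chr6:123289872-123290121 (minus strand) for Clec4e, chr9:7558179-7558428 (plus strand) for Mmp8 and chr3:90668821-90669070 (plus strand) for S100a8.
Clec4e: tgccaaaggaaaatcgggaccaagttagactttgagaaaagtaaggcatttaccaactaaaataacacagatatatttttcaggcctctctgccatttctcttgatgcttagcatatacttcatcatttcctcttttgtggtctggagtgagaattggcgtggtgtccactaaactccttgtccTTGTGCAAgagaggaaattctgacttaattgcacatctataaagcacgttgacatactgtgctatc
Mmp8: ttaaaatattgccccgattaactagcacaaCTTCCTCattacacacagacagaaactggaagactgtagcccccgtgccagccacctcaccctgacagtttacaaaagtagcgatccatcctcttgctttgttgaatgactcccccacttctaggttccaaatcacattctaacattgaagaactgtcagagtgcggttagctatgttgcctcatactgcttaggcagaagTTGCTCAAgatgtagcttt
S100a8: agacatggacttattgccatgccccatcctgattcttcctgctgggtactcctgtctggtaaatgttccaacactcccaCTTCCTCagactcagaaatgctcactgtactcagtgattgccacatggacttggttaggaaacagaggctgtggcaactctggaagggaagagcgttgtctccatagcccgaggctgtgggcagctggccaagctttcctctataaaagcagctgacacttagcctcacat
TTGCNNAA occurred in 9.55% of 27025 promoters and in 3 of the 11 largest rises that had a window, and GAGGAAG in 10.4% and in 3 of the 11. Of all genes that rose and had a window, 7.63% held TTGCNNAA, against 8.65% of tested genes, and 13.3% held GAGGAAG, against 10.3%. The core of an NF-kB site occurred in 1.17% and in 0 of the 11. A match is a run of letters and no evidence of binding.

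Among matrix proteoglycans and matrix-degrading enzymes, 6 of 23 rose and 1 fell (15% of all genes at this level rose), and the median change was 0.23 against 0.27 for all genes at this level. Beside Vcan and Mmp8, the macrophage metalloproteinase gene Mmp19 rose by 0.79 ± 0.18 SE, Thbs1, which encodes thrombospondin 1, by 0.60, the matrix adaptor gene Tgfbi by 0.48 and the sheddase gene Adam9 by 0.42. The heparan sulfate proteoglycan gene Sdc4 fell (-0.35). Mmp19 read 7.40, 7.46 and 7.13 in naive mice and 7.66, 8.53 and 8.18 at 3 weeks, so that 3-week replicate 1 stood just above the naive range. When an outer array was left out, 2 of the 23 rose, and without 3-week replicate 1, 12 did.

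S100 proteins and annexins bind calcium and membranes and are abundant in myeloid cells. Of 16 measured, 8 rose and 0 fell (15% of all genes at this level rose), all 3 tumour arrays lay above all naive arrays for 10 (25.2% of all genes at this level), and the median change was 0.57 (0.27 at this level). The S100 genes that rose were S100a8, S100a6 (0.85), S100a11 (0.74), S100a10 (0.69) and S100a4 (0.65), and the annexin genes were Anxa1 (0.62), Anxa2 (0.61) and Anxa4 (0.57). Anxa1, whose product restrains inflammation, read 11.91, 11.95 and 11.98 in naive mice and 12.40, 12.62 and 12.69 at 3 weeks, with all 3 tumour arrays well above a tight naive group (0.62 ± 0.11 SE, limma adjusted p = 0.0138). S100a9, the partner of S100a8, read 6.61, 6.93 and 7.42 and then 7.35, 7.59 and 7.71; naive replicate 3 exceeded 3-week replicate 1, and the difference of 0.57 ± 0.25 SE did not pass (limma adjusted p = 0.128). In the fits without an outer array, 1 of the 16 rose (S100a11), and without 3-week replicate 1, 14 did.

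Mitochondrial respiratory chain subunits carry electrons from NADH and succinate to oxygen. Of 28 measured, 13 rose and 0 fell (15% of all genes at this level rose), and all tumour arrays lay above all naive arrays for 20 (25.2% of all genes at this level). The median change was 0.56, against 0.27 for all genes at this level, and 0.40 after quantile normalization, when 6 rose. The members that rose belong to complex I (Ndufv2, Ndufb8, Ndufa9, Ndufb5, Ndufv1, Ndufs1 and Ndufs3), complex II (Sdhb and Sdhc), complex III (Uqcrc1 and Uqcrc2) and complex IV (Cox6c and Cox5b). Ndufv2 read 8.41, 8.52 and 8.75 in naive mice and 9.06, 9.51 and 9.63 at 3 weeks (0.84 ± 0.14 SE, limma adjusted p = 0.012), and no array of one group reached the other. Sdhb read 7.56, 7.78 and 8.14 and then 8.11, 8.94 and 9.03 (0.86 ± 0.22 SE, limma adjusted p = 0.0365), and here naive replicate 3 lay above 3-week replicate 1. Over the 28 genes the median difference from the naive mean was 0.20, 0.64 and 0.75 in 3-week replicates 1, 2 and 3 and 0.14 in naive replicate 3. With any outer array left out, 0 of the 28 rose, while without 3-week replicate 1 all 28 did. In the latter fit 4531 of all 19938 genes were called higher and 4380 lower. Over the fits without 1 array the median of the list ran from 0.43 to 0.68.

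Of the 29 measured genes of glycolysis and the hypoxia response, 6 were higher and 0 lower (15% of all genes at this level rose), and all tumour arrays lay above all naive arrays for 14 (25.2% at this level). The median change was 0.27, the same as that of all genes at this level. The 6 were the triosephosphate isomerase gene Tpi1 (0.69 ± 0.17 SE), the hexokinase gene Hk3 (0.60 ± 0.12 SE), the aldolase gene Aldoa (0.54 ± 0.11 SE), Pgk1 (0.54), Pgam1 (0.52) and the stress gene Ndrg1 (0.50). Hk3 read 7.71, 7.74 and 7.89 in naive mice and 8.12, 8.51 and 8.50 at 3 weeks (limma adjusted p = 0.0204), and Aldoa read 10.85, 10.91 and 10.96 and then 11.19, 11.54 and 11.61 (adjusted p = 0.0192). In both genes every tumour array exceeded every naive array, with replicate 1 nearest to the naive range. Vegfa, a target of the hypoxia-inducible factors, differed by -0.16 (adjusted p = 0.201) and did not pass. When an outer array was left out, 0 of the 29 rose, and without 3-week replicate 1, 16 did.

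ACGTG, the core of the element that hypoxia-inducible factors bind, is shown in capitals in the 250 bases before Hk3 (chr13:55021386-55021635, minus strand), Aldoa (chr7:126799255-126799504, minus strand, the second of its 3 listed windows) and Pgk1 (chrX:106186850-106187099, plus strand). They are shown because they are the 3 members with the largest rise that held the motif.
Hk3: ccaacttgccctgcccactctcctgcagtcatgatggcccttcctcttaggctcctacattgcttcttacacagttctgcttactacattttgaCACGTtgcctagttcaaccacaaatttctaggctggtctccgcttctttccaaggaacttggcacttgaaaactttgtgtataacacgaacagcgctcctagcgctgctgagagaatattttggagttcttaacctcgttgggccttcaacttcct
Aldoa: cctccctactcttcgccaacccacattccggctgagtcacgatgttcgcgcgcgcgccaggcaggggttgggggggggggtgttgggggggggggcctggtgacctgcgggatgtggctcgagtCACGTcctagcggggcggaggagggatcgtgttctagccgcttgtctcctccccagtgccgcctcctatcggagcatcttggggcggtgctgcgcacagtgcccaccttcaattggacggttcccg
Pgk1: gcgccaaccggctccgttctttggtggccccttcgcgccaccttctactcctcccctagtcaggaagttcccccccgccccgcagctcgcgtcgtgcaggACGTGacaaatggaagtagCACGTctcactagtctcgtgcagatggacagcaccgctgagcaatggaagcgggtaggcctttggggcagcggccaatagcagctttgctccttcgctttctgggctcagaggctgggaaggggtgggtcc
In the first window of each gene ACGTG occurred in 16.6% of all promoters, in 16 of 27 list members and in 3 of the 5 that rose and had a window. It occurred in 26.8% of all genes that rose and had a window, against 18.5% of tested genes. The median GC content was 64% in the promoters of the list, 57.6% in those of genes that rose and 52% in all promoters. The part of base composition in these shares was not tested. Over the 29 genes the median difference from the naive mean was 0.11, 0.37 and 0.36 in 3-week replicates 1, 2 and 3 and 0.07 in naive replicate 3.

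Toll-like receptors start the response to microbial products, and 5 of 16 members of their list rose and 0 fell (15% of all genes at this level rose), with a median change of 0.37 against 0.27 at this level. Tlr4, the receptor for endotoxin, read 6.78, 7.003 and 7.45 in naive mice and 7.52, 8.001 and 8.29 at 3 weeks (0.86 ± 0.21 SE, limma adjusted p = 0.0338), and its partner Ly96, which encodes MD-2, read 7.13, 6.82 and 7.62 and then 7.28, 8.29 and 8.57 (0.86 ± 0.24 SE, limma adjusted p = 0.0452). For Ly96 naive replicate 3 exceeded 3-week replicate 1, so the groups overlapped, and for Tlr4 the lowest tumour array lay just above the highest naive array. The adaptor gene Myd88 rose by 0.65, Tlr2 by 0.50 and Tlr8 by 0.45. Of 15 C-type lectin receptors, Clec4e, Clec5a (0.99 ± 0.22 SE) and Clec4a2 (0.64) rose and Cd209a fell (2.9% of all genes at this level rose), and of 17 Fc receptors and signalling adaptors, Cd300lf and Trem3 (0.81) rose and 0 fell, a share below the 15% of all genes at this level. The median level of the lectin list, 7.79, lay near the range from 8 to 10, where 15% of all genes rose. In the fits without an outer array, no Toll-like receptor gene passed, and of the other lists Cd300lf alone passed in all 4 of these fits. Without 3-week replicate 1, 9 Toll-like receptor genes, 6 lectin receptor genes and 4 Fc receptor and adaptor genes rose.

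**Figure D3:**
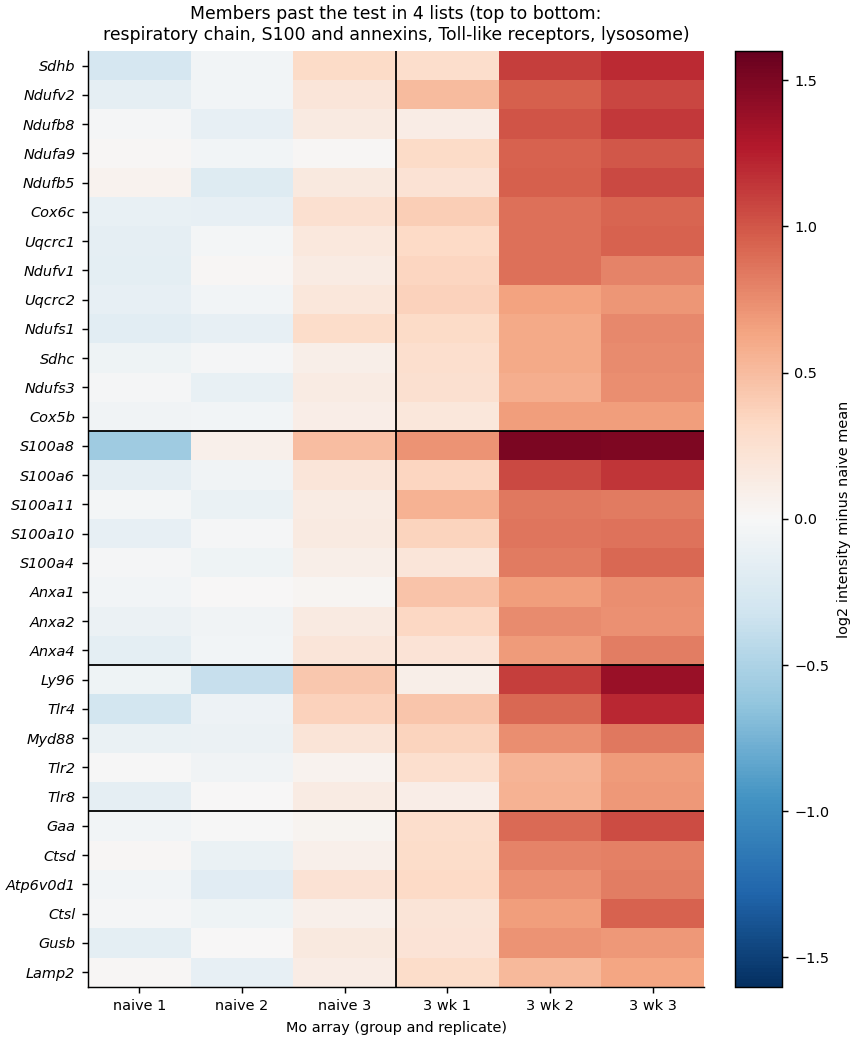
Log2 intensity minus the naive mean on each of the 6 Mo arrays (columns) for the members that rose in 4 lists (rows): respiratory chain subunits, S100 proteins and annexins, Toll-like receptors and partners, and lysosomal proteins. Red is above and blue below the naive mean; 3-week replicates 2 and 3 are the deepest red in every list, and 3-week replicate 1 is nearer to naive replicate 3.

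Granule proteins are stored by neutrophils and, in part, by young monocytes. Among 22 genes for proteins of the specific and gelatinase granules, those that rose were the 4 genes Mmp8, Chil3, Lcn2 and the haptoglobin gene Hp (0.89 ± 0.14 SE), and 0 fell (15% of all genes at this level rose). The median of the list was 0.10, against 0.27 at this level. Chil3, a chitinase-like protein of alternatively activated macrophages and neutrophils, read 8.21, 8.28 and 9.30 and then 8.85, 9.78 and 10.51 (1.12 ± 0.32 SE, limma adjusted p = 0.048), with naive replicate 3 above 3-week replicate 1. Lcn2, which encodes the iron-siderophore trap lipocalin 2, read 7.29, 7.75 and 7.97 and then 8.39, 8.91 and 8.95 (1.08 ± 0.21 SE, limma adjusted p = 0.018) without overlap. Of 11 genes listed for azurophil granule enzymes and related proteins, Serpinb1a and the proteinase 3 gene Prtn3 (0.95 ± 0.27 SE) rose (2.9% of all genes at this level rose). Serpinb1a encodes an inhibitor of neutrophil elastase and no enzyme, so Prtn3 was the 1 enzyme gene that rose. Mpo differed by -0.05 (limma adjusted p = 0.89) and Elane by 0.61 (adjusted p = 0.124). With any outer array left out, Mmp8 was the 1 granule gene that rose, and without 3-week replicate 1, 4 genes of the azurophil list did.

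The summed intensity of the 11 neutrophil markers was 3617, 3872 and 4105 in naive replicates 1 to 3 and 3969, 4741 and 4607 at 3 weeks, and 1 of them, S100a8, rose. That of the 10 granulocyte and monocyte progenitor markers was 1024, 1087 and 1158 and then 1063, 1326 and 1310, and 1 of them, Prtn3, rose, while Mpo, Kit, Cd34, Gfi1 and Ms4a3 were within the range of silent genes in all 6 arrays. Their part in the granule and S100 results was not tested. Fewer cells of a type and less RNA per cell cannot be told apart in bulk arrays.

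Cathepsins and lysosomal proteins digest what cells take up. Of 21 measured, 6 rose and 0 fell (12.4% of all genes at this level rose), all tumour arrays lay above all naive arrays for 10 (29.3% of all genes at this level), and the median change was 0.22 (0.23 at this level). The acid glucosidase gene Gaa rose by 0.75 ± 0.16 SE, the protease gene Ctsd by 0.63 ± 0.13 SE, the proton pump subunit gene Atp6v0d1 by 0.62 ± 0.13 SE, Ctsl by 0.61, Gusb by 0.55 and Lamp2 by 0.48. Ctsd read 9.93, 9.79 and 9.99 and then 10.19, 10.69 and 10.71, and every tumour array exceeded every naive one. When an outer array was left out, 0 of the 21 rose, and without 3-week replicate 1, 10 did.

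Of 27 actin and motility genes, Capg (0.74 ± 0.16 SE), Tmsb10 (0.60) and Lcp1 (0.44) rose, which cap, sequester and bundle actin, and 0 fell; 12.4% of all genes at this level rose, so the share was near the background. Of 25 NADPH oxidase subunits and antioxidant enzymes, Ncf4 (0.73 ± 0.16 SE), the p40 subunit of the oxidase, and the catalase gene Cat (0.51) rose and 0 fell, with a median of 0.34 (15% of all genes at this level rose, with a median of 0.27). Cybb, the catalytic subunit of the oxidase, was nearly level at 13.27, 13.32 and 13.35 in naive mice and 13.26, 13.26 and 13.33 at 3 weeks (-0.03, limma adjusted p = 0.891). These calls also ended when any 1 outer array was left out; without 3-week replicate 1, 13 actin genes and 18 oxidase and antioxidant genes rose, and without naive replicate 3, 7 and 5 did.

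Of growth factor and cytokine receptors, 2 of 25 rose and 0 fell (12.4% of all genes at this level rose): Csf2rb (0.66 ± 0.12 SE), the shared beta chain of the receptors for GM-CSF, IL-3 and IL-5, and Csf2rb2 (0.60 ± 0.13 SE), a close mouse copy specific to IL-3. The probes of such similar genes may read both. Csf2rb read 9.99, 10.14 and 10.33 and then 10.59, 10.93 and 10.94, with no overlap. Of 22 JAK-STAT genes, the kinase gene Tyk2 (0.63 ± 0.13 SE) and Stat3 rose and 0 fell (15% of all genes at this level rose). Stat3, the transcription factor through which many tumour-derived cytokines act, read 10.63, 10.73 and 10.83 and then 10.98, 11.17 and 11.12 (0.36 ± 0.10 SE, limma adjusted p = 0.0485), a small difference without overlap; the call ended after quantile normalization within the subset (adjusted p = 0.0837) and over all arrays (0.123). None of 26 myeloid lineage transcription factors passed, at a level where 15% of all genes rose; Cebpa differed by -0.48 (adjusted p = 0.072) and Cebpb by -0.004 (adjusted p = 0.985). The calls of the 4 genes ended when any 1 outer array was left out, whereas without 3-week replicate 1 there were 11 JAK-STAT genes, 7 receptors and 5 transcription factors that rose, and 4, 3 and 1 without naive replicate 3.

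Among 27 genes for T cell suppression, 2 rose and 0 fell (S100a8 and Ncf4), and the median was 0.04 (2.9% of all genes at this level rose, with a median of -0.12). Arg1, which depletes arginine, read 6.22, 6.25 and 6.06 in naive mice and 6.01, 5.93 and 5.68 at 3 weeks, all within the range of silent genes (-0.30 ± 0.10 SE, limma adjusted p = 0.0766). Nos2, which makes nitric oxide, read 7.05, 7.07 and 6.76 and then 7.003, 6.31 and 6.56 (-0.34 ± 0.14 SE, limma adjusted p = 0.114), also within that range. Neither gene was thus above the 95th percentile of silent genes in any of the 6 arrays, and neither passed. Both lay above the median of silent genes (5.13 to 5.58 per array), so a low level of either transcript cannot be told from none. With any 1 outer array left out 0 of the 27 genes rose, and without 3-week replicate 1, 8 did.

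Of the other effectors, Cd274, which encodes PD-L1, read 7.93, 8.10 and 8.13 and then 8.18, 8.29 and 8.41 (0.24 ± 0.14 SE, limma adjusted p = 0.231). The 3-week arrays all lay above the naive ones, by little. Tgfb1 read 11.73, 11.82 and 11.88 and then 11.66, 11.85 and 11.92 (adjusted p = 0.997), with the groups intermixed. Il10 (-0.17, adjusted p = 0.249), Ptgs2 (0.04, 0.859), the interleukin 4 receptor gene Il4ra (0.16, 0.212) and Itgam, which encodes CD11b (0.20, 0.154), did not pass either. In fits without 1 of the 6 arrays the changes ran from -0.37 to -0.21 for Arg1, -0.53 to -0.18 for Nos2 and 0.18 to 0.30 for Cd274.

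Beside Hspa1a, Siglec1 and Flt1, the largest falls among genes whose groups did not overlap included genes of lipid transport and a lectin. Apoe, a lipid carrier secreted by macrophages, read 12.27, 12.05 and 11.99 in naive mice and 10.69, 10.89 and 10.87 at 3 weeks, a 2.44-fold fall (-1.29 ± 0.23 SE, limma adjusted p = 0.0138). Pltp, which transfers phospholipids between lipoproteins, fell from 9.80, 9.91 and 9.97 to 9.08, 9.16 and 9.28 (-0.72 ± 0.13 SE, limma adjusted p = 0.0146). For both genes the tumour arrays lay well below the naive arrays, 3-week replicate 1 included. Cd209a, a dendritic cell lectin of the DC-SIGN family, fell from 7.98, 8.40 and 8.27 to 7.56, 7.42 and 7.54 (-0.71 ± 0.18 SE, limma adjusted p = 0.0375). The other large falls were Fggy (-0.65), Cyp2c66 (-0.62), Dmrt2 (-0.56), Cyp2d40 (-0.56), Grifin (-0.56) and Zfp532 (-0.56), and 3-week replicate 1 was the highest tumour array in each. Dmrt2 and Zfp532 were within the range of silent genes in all 6 arrays. The 1194 silent genes themselves had a median change of -0.17, with 13 called lower and 0 higher, so falls of dim genes are uncertain. In the fits without an outer array, Hspa1a, Siglec1 and Flt1 were the 3 genes that fell.

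Of 29 macrophage maturation and efferocytosis genes, Apoe and Siglec1 fell and Pros1, which encodes protein S, a ligand of the receptor MERTK, rose (0.72 ± 0.14 SE), and the median was -0.19 (2.9% of all genes at this level rose, with a median of -0.12). The complement genes C1qa (-0.19, adjusted p = 0.52), C1qb (-0.15, 0.562) and C1qc (-0.22, 0.515) did not pass. Of 20 lipid genes, Apoe and Pltp fell and Msr1 (0.69), the scavenger receptor A gene, and Dgat2 (0.70 ± 0.16 SE), which makes triglyceride, rose (15% of all genes at this level rose). The summed intensity of 15 red pulp and marginal zone macrophage markers was 2846 to 3144 in naive arrays and 2907 to 3323 at 3 weeks; Siglec1 was the 1 that fell, and Cd163, Cd5l, Marco, Cd209b, Timd4, Mertk and C1qc were within the range of silent genes in all 6 arrays. Its part in the fall of Apoe and Siglec1 was not tested. Without 3-week replicate 1, 3 maturation and 5 lipid genes rose, and with any 1 outer array left out 0 did.

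Of 19 cytosolic heat shock chaperones Hspa1a alone fell and 0 rose, with a median of 0.10 (15% of all genes at this level rose, with a median of 0.27). Hspa8, the constitutive relative of HSP70, differed by -0.08 (adjusted p = 0.615), Hsph1 by -0.40 (0.132) and Dnajb1 by -0.03 (0.894). Without 3-week replicate 1, 7 of the 19 rose, and without naive replicate 3, 1 did. The bases before Hspa1a (chr17:34972157-34972406, minus strand) are shown with GAANNTTC, the core of the element that heat shock factor binds, in capitals, since Hspa1a was the 1 chaperone that passed.
Hspa1a: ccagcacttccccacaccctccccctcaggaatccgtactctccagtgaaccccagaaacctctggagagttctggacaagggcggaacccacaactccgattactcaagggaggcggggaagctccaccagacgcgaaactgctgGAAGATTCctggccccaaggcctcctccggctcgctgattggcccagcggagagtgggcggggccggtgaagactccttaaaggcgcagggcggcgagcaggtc
GAANNTTC occurred in 6.78% of all promoters and in 5 of the 16 chaperone genes with a window. It occurred in 7.03% of all genes that fell and had a window, against 5.89% of tested genes. Immediate early genes respond within minutes to tissue handling, and none of 24 passed (median -0.15, against 0.27 for all genes at this level). Fosb read 10.71, 10.99 and 9.76 and then 9.77, 10.15 and 8.74 (-0.94, limma adjusted p = 0.09) and Jun 10.75, 10.60 and 10.01 and then 9.96, 9.93 and 9.37 (-0.70, 0.0987). In both genes replicate 3 was the lowest array of its group. The part of handling in the fall of Hspa1a was not tested.

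Interferon-stimulated genes are induced by type I interferon, and 2 of 27 passed at 3 weeks. Dhx58, which encodes the RNA sensor LGP2, rose (0.55 ± 0.14 SE) and Siglec1 fell, and the median was 0.19 (15% of all genes at this level rose, with a median of 0.27). At 6 weeks all 27 passed as lower than in naive mice, with a median of -1.14 against -0.09 for all genes. That comparison shares the naive arrays. Its share of all genes called was not worked out, so the count has no background beside it. Of 19 class II and interferon-gamma response genes, Cxcl9, a chemokine that draws T cells, fell from 7.20, 7.36 and 7.18 to 6.79, 6.83 and 6.84 (-0.43 ± 0.11 SE, limma adjusted p = 0.0399) and 0 rose (15% of all genes at this level). The Cxcl9 call ended after median scaling (-0.29, adjusted p = 0.0964) and after quantile normalization (0.0694 within the subset and 0.134 over all arrays), and that of Dhx58 after quantile normalization (0.0803 and 0.121). H2-Aa read 10.47, 10.42 and 10.39 and then 10.11, 9.68 and 9.73, and Cd74 read 11.07, 11.05 and 10.99 and then 10.81, 10.39 and 10.39. The tumour arrays of both lay below the naive ones, but the differences of -0.58 ± 0.38 SE and -0.51 ± 0.34 SE did not pass (limma adjusted p = 0.267 and 0.279); from 3 to 6 weeks H2-Aa fell by 3.15 and Cd74 fell by 2.84 on the log2 scale. The calls of Dhx58 and Cxcl9 ended when any 1 outer array was left out; without 3-week replicate 1, 8 interferon-stimulated and 4 class II and interferon-gamma response genes rose, and without naive replicate 3, 3 and 0 did.

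Genes of DNA synthesis and mitosis mark dividing cells. Of 29 DNA replication genes Rfc2, a subunit of the clamp loader, rose (0.71 ± 0.16 SE), and of 29 mitosis genes 0 passed (medians 0.25 and 0.19; 2.9% of all genes at this level rose, with a median of -0.12). Mki67 read 6.87, 7.80 and 8.65 in naive mice and 7.87, 8.77 and 8.70 at 3 weeks, so that the naive arrays spanned nearly the whole range (0.68 ± 0.35 SE, limma adjusted p = 0.184). Top2a read 7.002, 7.37 and 8.52 and then 7.60, 8.17 and 8.25 (adjusted p = 0.327), with naive replicate 3 above all 3 tumour arrays. At 6 weeks all 29 genes of either list passed as higher than in naive mice, with medians of 1.55 and 2.65 against -0.09 for all genes. The share of all genes called at 6 weeks was not worked out, so these counts have no background beside them. Without naive replicate 3, 6 mitosis genes and 5 replication genes rose at 3 weeks, without 3-week replicate 1, 4 and 7 did, and with any 1 outer array left out none did.

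The remaining lists held few calls, with fewer members called higher than the share of all genes at their level (15%, or 12.4% for ribosomal proteins and 2.9% for chemokine ligands). Of 28 genes of TNF, IL-1 and NF-kB signalling, Pycard, the inflammasome adaptor gene, rose (0.43); of 22 integrins and adhesion molecules, Itgb7 rose (0.63 ± 0.12 SE); of 24 genes of the unfolded protein and amino acid response, Sesn2 rose (0.37) and Trib3 fell (-0.30). Of 18 chemokine ligands Cxcl9 alone passed, and of 23 ribosomal protein genes none did (median 0.20). Without 3-week replicate 1 the members that rose numbered 10 in the TNF, IL-1 and NF-kB list, 4 in the adhesion list, 7 in the unfolded protein list and 4 among ribosomal proteins, and with any 1 outer array left out 0 in each; without naive replicate 3 they were 2, 1, 1 and 1.

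**Figure D4:**
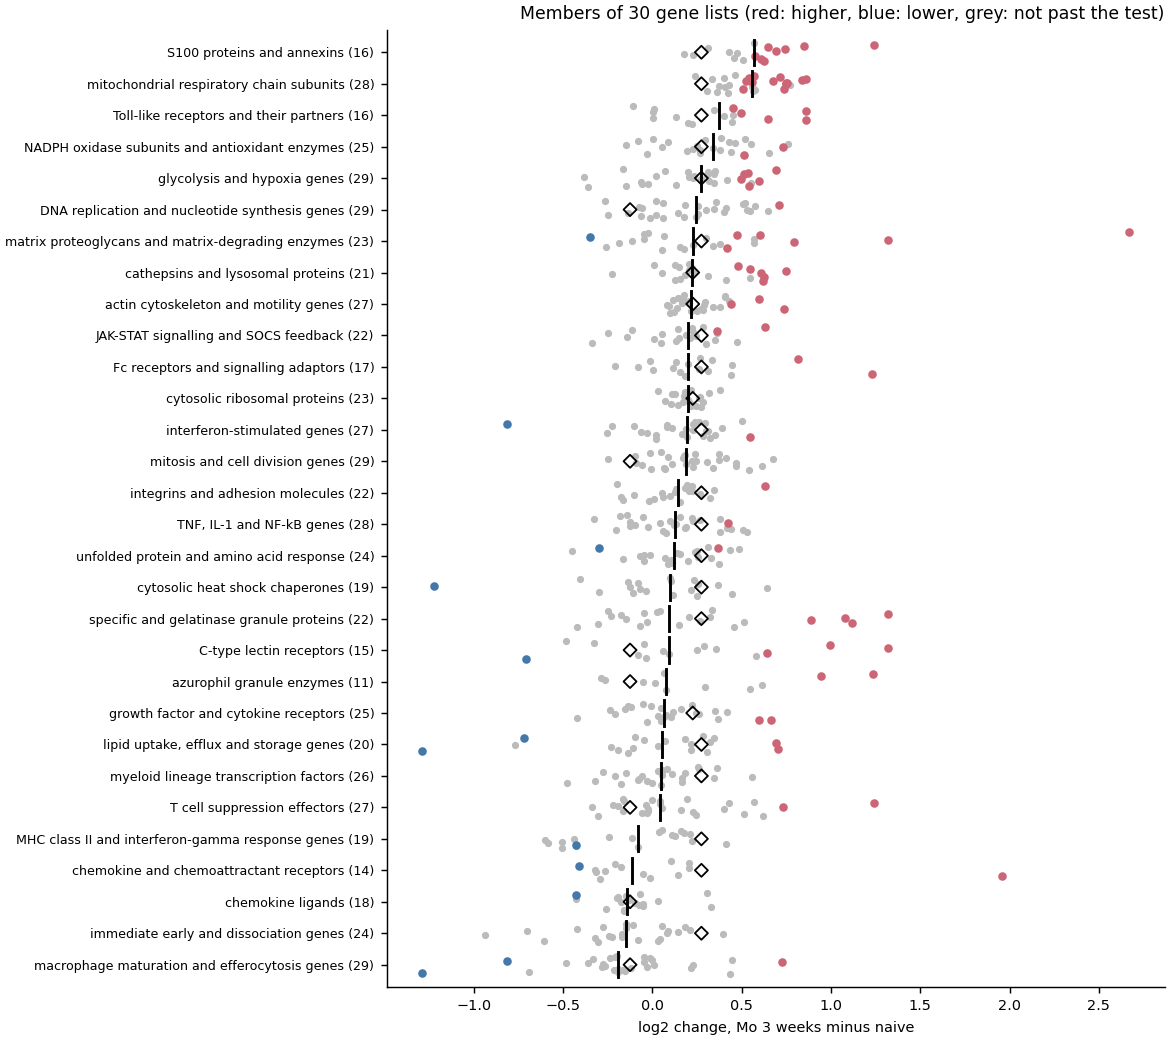
Log2 change at 3 weeks of each measured member of 30 gene lists (points; number of members in brackets), with list medians (black bars) and the median of all genes in the range that holds the list's median level (open diamonds: 0.27 at 8 to 10, 0.23 above and -0.12 at 6 to 8). Red points rose and blue points fell at an adjusted p below 0.05; S100 proteins and annexins (0.57) and respiratory chain subunits (0.56) have the highest medians, and macrophage maturation genes (-0.19) the lowest.

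B cell markers were highest in replicate 1 of both groups. The summed intensity of 14 B cell markers was 2555 in naive replicate 1 and 2302 in 3-week replicate 1, against 1272 to 1536 on the other 4 arrays, and Ms4a1, which encodes CD20, stood at 8.05 and 7.52 in those 2 arrays and at 6.02 to 6.29 in the others. The sum of 18 T and NK cell markers was 2656 and 2736 in the same arrays and 3488 to 3715 in the others. Erythroid markers summed to 1340 to 2081 in naive arrays and to 1952, 3353 and 1546 at 3 weeks, with 3-week replicate 2 the highest. None of the B, plasma, T and NK, erythroid, platelet, endothelial or eosinophil, basophil and mast cell markers passed. Cd209a of 16 dendritic cell markers and Cldn4 of 11 epithelial markers fell. Of those 11, 8 were within the range of silent genes in all 6 arrays, Cldn4, Epcam and Erbb2 among them. The part of these cells in the differences between arrays was not tested.

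The changes of the 16 genes were set against the change of the same genes in PMN at 3 weeks, which rests on 2 arrays against 4. In PMN 0 of 19938 genes passed (374 at an unadjusted p below 0.05). The difference between the Mo and the PMN change passed for 1 gene, Vcan (0.00502% of genes; 3312 at an unadjusted p below 0.05). Vcan changed by -0.09 ± 0.24 SE in PMN and the difference was 2.76 ± 0.32 SE (limma adjusted p = 0.00334). In PMN Vcan lay at a mean of 5.46 in naive mice and 5.36 at 3 weeks, within the range of silent genes in all 6 PMN arrays (95th percentile 7.06 to 7.34), so the size of the difference is uncertain. Camk2d, Flt1 and Hspa1a were also within that range in all 6. F10 and Lgals1 were within it in 5 of the 6, Siglec1 in 3 and Cux1 in 1. The adjusted p of the Vcan difference was 0.0775 and 0.053 without 3-week PMN replicate 1 or 2, which ended the call, and between 5.7e-06 and 0.0208 when any 1 other array of the comparison was left out.

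For the other 15 genes the difference did not pass, which does not show that the subsets changed alike. F10 differed by 1.10 ± 0.17 SE (adjusted p = 0.0511), S100a11 by 0.88 ± 0.14 SE (0.0511), Mmp8 by 1.47 ± 0.24 SE (0.0626), Ccr1 by 2.11 ± 0.37 SE (0.0734) and Hspa1a by -1.18 ± 0.21 SE (0.0734). The PMN changes of these 5 genes were 0.02 ± 0.13 SE, -0.14 ± 0.10 SE, -0.15 ± 0.18 SE, -0.15 ± 0.27 SE and -0.04 ± 0.15 SE, each within 2 SE of 0. These errors rest on the spread shared with Mo and may be too large for PMN. Since Hspa1a was within the range of silent genes in all 6 PMN arrays and F10 in 5, their PMN changes are uncertain in size. Upper quartiles of intensity were 254 to 298 in Mo and 183 to 202 in PMN arrays, and no level of one was set against a level of the other.

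**Figure D5:**
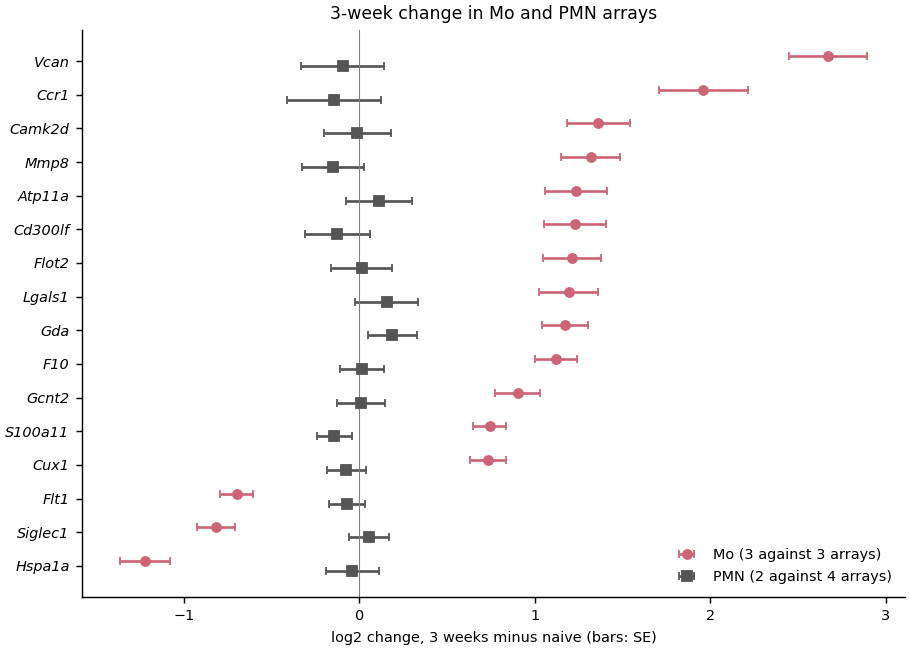
Log2 change from naive to 3 weeks of the 16 genes in Mo (red circles, 3 against 3 arrays) and PMN (grey squares, 2 against 4 arrays); bars are standard errors of the fit. Mo changes run from -1.22 (Hspa1a) to 2.67 (Vcan) and PMN changes from -0.15 to 0.19; the difference passed for Vcan only, which was within the range of silent genes in PMN.

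Whether a gene had reached its 6-week level by 3 weeks was read from the contrast of the tumour groups, which shares the 3-week arrays with the comparison above. Among the 16 genes, Vcan, Ccr1 (1.19 ± 0.25 SE), Mmp8 (1.46 ± 0.17 SE), Cd300lf (0.72 ± 0.18 SE), Flot2 (0.56 ± 0.17 SE), Gda (0.52 ± 0.13 SE) and F10 (0.71 ± 0.12 SE) rose again from 3 to 6 weeks. Camk2d (-0.12 ± 0.18 SE, limma adjusted p = 0.776), Gcnt2 (-0.19 ± 0.13 SE, 0.484), Cux1 (-0.13 ± 0.10 SE, 0.567), S100a11 (0.10 ± 0.10 SE, 0.657), Lgals1 (0.33 ± 0.17 SE, 0.326) and Atp11a (0.48 ± 0.18 SE, 0.136) did not pass. Camk2d stood at 9.50, 9.55 and 9.39 at 6 weeks, close to its 3-week values. Of the granule and alarmin genes, Lcn2 rose after 3 weeks by a further 3.35 ± 0.21 SE, S100a8 by 2.92 ± 0.28 SE, Chil3 by 2.83 ± 0.32 SE and Prtn3 by 2.72 ± 0.27 SE. Dhx58 fell from 3 to 6 weeks (-1.06 ± 0.14 SE), and Apoe, which fell at 3 weeks, stood at 11.36, 12.26 and 11.09 at 6 weeks (0.75 ± 0.23 SE, limma adjusted p = 0.0562).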

How the data were processed

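RNA of 17 sorted cell samples was hybridised to 17 arrays. The deposited values are intensities that the authors made with RMA, per the submitters' processing notes; its version and settings are not given in the sources used here. RMA yields log2 values, but the deposited ones run from 9.755 to 32095 and were read as linear and put on the log2 scale. Of 35557 features, 21789 carried 1 gene symbol, 1621 several and 12147 none; the brightest feature of each gene was kept, which left 19938 genes (999 had several features).

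A limma model (version 3.58.1, R 4.3.3) with one mean per group took in all 17 arrays and no filter on dim genes. Tests on its moderated statistics were two-sided, with Benjamini-Hochberg adjustment across all genes. With 3 arrays against 3, an exact permutation test cannot go below p = 0.1. The number of arrays limits the precision. The pipeline was tested on simulated data. Errors are standard errors of the fit.

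The comparison, gene lists and genes were chosen with earlier results of these data known. Genes are named if they are among the 12 largest rises or falls without overlap, up to 3 passing members of a list (up to 2 otherwise), in a set of suppression and sorting genes, or called in every fit without 1 of the 6 arrays; predicted genes, small RNAs and large receptor families were passed over among the largest changes. Other members are named to account for a list's count. Replicate numbers were not taken as pairs. Promoter sequence is from RefSeq (GRCm38.p6). Array weights were fitted gene by gene, because the default method did not converge.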

Additional observations from a re-analysis of the deposited data

Results flagged for a closer look

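Vcan is set apart because its 3-week change differed between the subsets by a test of the difference, by 2.76 on the log2 scale (limma adjusted p = 0.00334); the call was lost without either of the 2 PMN arrays at 3 weeks, and Vcan was within the range of silent genes in all 6 PMN arrays compared. In naive PMN arrays, which enter the difference for Cd300lf, 1 of the 4 arrays stood at a log2 level of 10.29 and lay apart from the others, whose lowest value was 9.92. About 1 in 20 groups of this size would be picked out by chance, and 16 were examined.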

How the results depend on the processing

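The count of genes changed at 3 weeks (1202) was 2 in the 9 Mo arrays alone, 0 in the 6 Mo arrays alone (4352 at an unadjusted p below 0.05 in limma), 13209 with array weights, 771 after quantile normalization within the subset, 354 after quantile normalization over 17 arrays, and 115 with a floor at 64. Leaving out 1 Mo array gave 16 to 8911 and leaving out 1 PMN array 651 to 951. Whether replicate numbers pair the samples was not settled. Deviations of same-numbered arrays correlated at 0.57, -0.09 and 0.61, and naive replicate 2 deviated most like 3-week replicate 1 (0.28). Deviations within a group sum to 0, so these correlations depend on one another and cannot decide it. With the replicate block the count was 5302. The count of differences between the subsets (1) was 6358 with array weights, 17 and 15 after the 2 quantile normalizations, 7 without dim genes, 5 with the floor, 2 with log2(value + 32), 3 with the mean of features and 1027 with the replicate block; leaving out 1 array gave 0 to 3242. The causes were not tested.

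The 69 genes chosen by the naming rule that passed kept their direction in all 1242 fits. Among genes chosen by that rule that did not pass, 21 fits turned the sign. Median scaling gave Cybb 0.109, Tgfb1 0.136, Cebpb 0.132 and Ly6g 0.0219. Quantile normalization within the subset gave Il4ra -0.0133 and Ly6g 0.0304, and over 17 arrays -0.0125 and 0.0287. Array weights gave Tgfb1 0.0392, Ptgs2 -0.137 and Cebpb 0.0227. Leaving out 1 Mo array gave Cd36 -0.45 to 0.113, Tgfb1 -0.0551 to 0.0747, Ptgs2 -0.159 to 0.16, Cebpb -0.10 to 0.0989 and Ly6g -0.22 to 0.0106.

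Naive replicate 3 and 3-week replicate 1 lie near each other, so group and array cannot be told apart for most calls, and the changes of dim genes are uncertain in size.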
